A study of Homo sapiens with 12 samples.

Results

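The 34 genes described here encode enzymes of cholesterol and fatty acid synthesis, the regulators of these pathways and, as a contrast, genes that export sterols or limit their uptake. They were taken from a list of genes known to be driven by the sterol regulatory element-binding proteins (SREBPs), with 3 targets of the liver X receptors (LXRs) added, and the gene identifiers of the count table were matched to symbols. All 34 were found and all passed the filter on low counts, among 17849 genes tested and 58302 identifiers in the table. By role they fall into 7 genes of the mevalonate segment, 11 genes from squalene to cholesterol, 5 SREBP factors and their controllers, 1 sterol transport gene, 7 fatty acid synthesis genes and 3 LXR targets.

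RNA was sequenced from 12 cultures of NCI-H520 (H520), an established line from a human lung squamous cell carcinoma, in 4 groups of 3. Cells that stably overexpress L1-FGGY, a transcript joining a LINE-1 element to the carbohydrate kinase gene FGGY, after lentiviral transduction were kept with DMSO ("L1-FGGY DMSO") or with 10 μM ML355, an inhibitor of the lipoxygenase 12-LOX ("L1-FGGY ML355"). A further group is labelled as L1-FGGY cells with 450 μM NVR, a reverse transcriptase inhibitor ("the libraries labelled NVR"). Its count columns name NVR alone, without L1-FGGY, and were joined to the only sample titles that hold NVR. The control group, titled as control with DMSO and read as the empty-vector line, received DMSO ("CTRL DMSO"). Its count columns name only DMSO. They were joined to the control titles because the L1-FGGY DMSO samples have columns of their exact titles. DMSO was at 0.2% in the controls, the agents were added when the medium was replaced 5 h after seeding, and the length of treatment is not given in the sources used here. Whether a line is a pool or a clone is not given in the sources used here, and nothing says that the 3 cultures of a group were made on separate days, so that p-values measure the spread between these cultures, which may be technical.

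SREBPs are held in the endoplasmic reticulum by SCAP and the INSIG proteins while sterols are abundant. When sterols fall they are carried to the Golgi, cut, and enter the nucleus, where SREBP2 mainly drives cholesterol synthesis and SREBP1 mainly fatty acid synthesis. LXRs are nuclear receptors that respond to oxidised sterols, so that their targets usually answer to sterol excess where SREBP targets answer to sterol shortage.

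Total counts ran from 16242082 to 27004768 per library. FGGY, the check of the labels, had 274 to 312 CPM (counts relative to library size, scaled between libraries by TMM) in the L1-FGGY DMSO libraries and 267 to 362 in the L1-FGGY ML355 libraries, but 3.81 to 4.83 in the libraries labelled NVR, against 2.99 to 3.83 in CTRL DMSO. The libraries labelled NVR therefore went against the L1-FGGY title joined to them and resembled CTRL DMSO, with a correlation of log2 CPM of at least 0.939 to it. Correlations between these 6 libraries and the 6 with high FGGY lay between 0.706 and 0.774. For that reason the libraries labelled NVR are compared with both DMSO groups below. In each group 5 of 8 squamous markers had at most 3 counts in every library, and SOX2 was at 0 in the 6 libraries with high FGGY but at 128 to 446 counts in the other 6. KRT14, of the same list, went the other way. It had 4 to 10 counts in L1-FGGY DMSO and 29 to 63 in L1-FGGY ML355, but 0 in the other 6 libraries. Summed CPM of 5 fibroblast markers were 336 to 350 in L1-FGGY DMSO, 111 to 121 in L1-FGGY ML355, 19.6 to 22.1 in the libraries labelled NVR and 19.8 to 25.2 in CTRL DMSO. Within that list LUM and DCN carried the difference, at 0 to 2 counts in the last 6 libraries, while COL1A2 was at 0 to 2 counts in all 12. In RNA of whole cultures, fewer cells of a type and less RNA per cell cannot be told apart.

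The promoters of 4 members are printed to show which regulator motifs they hold. MSMO1 (C4-methyl sterol oxidase), STARD4 (a carrier of cholesterol between membranes) and INSIG1 (which retains SCAP and SREBP) are among the members with the largest rises under ML355, and SREBF2 encodes SREBP2 itself. The sequences are those of RefSeq on GRCh38.p14, 250 bases before to 50 bases after the gene's start, at chr4:165327419-165327718 (+ strand) for MSMO1, chr5:111512486-111512785 (- strand) for STARD4, chr7:155297628-155297927 (+ strand) for INSIG1 and chr22:41832855-41833154 (+ strand) for SREBF2. Capitals mark matches, on either strand, to the sterol regulatory element core TCACNCCAC or its variant TCACNCCAT, the CCAAT box, CCAAT, which is bound by NF-Y, a partner of SREBPs, and the E-box CACGTG.
MSMO1: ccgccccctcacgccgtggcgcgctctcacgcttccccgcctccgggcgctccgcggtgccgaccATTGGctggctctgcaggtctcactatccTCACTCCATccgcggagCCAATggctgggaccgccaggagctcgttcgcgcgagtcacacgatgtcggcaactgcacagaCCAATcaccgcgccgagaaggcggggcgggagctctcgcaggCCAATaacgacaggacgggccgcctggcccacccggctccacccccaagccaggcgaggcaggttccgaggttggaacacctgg
STARD4: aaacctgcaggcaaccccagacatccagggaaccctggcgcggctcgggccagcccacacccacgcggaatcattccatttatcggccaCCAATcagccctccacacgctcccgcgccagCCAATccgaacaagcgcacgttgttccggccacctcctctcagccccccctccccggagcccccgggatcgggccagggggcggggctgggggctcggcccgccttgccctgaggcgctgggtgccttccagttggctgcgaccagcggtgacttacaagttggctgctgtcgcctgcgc
INSIG1: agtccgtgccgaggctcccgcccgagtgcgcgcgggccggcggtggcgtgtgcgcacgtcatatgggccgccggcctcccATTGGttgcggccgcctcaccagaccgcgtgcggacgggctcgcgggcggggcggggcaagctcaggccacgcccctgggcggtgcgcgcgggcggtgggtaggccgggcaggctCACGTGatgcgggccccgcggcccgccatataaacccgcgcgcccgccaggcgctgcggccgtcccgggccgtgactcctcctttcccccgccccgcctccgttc
SREBF2: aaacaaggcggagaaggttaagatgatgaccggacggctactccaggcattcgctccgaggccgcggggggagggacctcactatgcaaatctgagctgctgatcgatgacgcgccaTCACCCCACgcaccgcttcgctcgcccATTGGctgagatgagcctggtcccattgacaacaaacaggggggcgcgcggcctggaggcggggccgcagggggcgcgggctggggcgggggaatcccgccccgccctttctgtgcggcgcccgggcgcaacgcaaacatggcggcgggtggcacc
These motifs did not overlap one another in the 4 windows. A gene was counted as holding a motif where any of its listed promoters did, for the members and for all genes of the table alike. Of the 29 members with a promoter in the RefSeq table, 21 held CCAAT, where 39.7% of all 27305 genes did. TCACNCCAC was found in SREBF2 alone and in 1.39% of all genes, TCACNCCAT in MSMO1 alone and in 0.780%, and CACGTG in 5 members (ABCA1, INSIG1, LSS, SC5D and SCAP) and in 8.77%. The LXR direct repeat was found in none of the 29 and in 0.0256% of all genes. The window of CYP51A1, which also rose under ML355 and is not printed, held none of these motifs. ABCG1, ACAT2, FASN, FDFT1 and SQLE have no entry. A match is a description of the letters and not a mapped binding site.

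Per length of transcript, the genes ranked high among all tested genes, with a median percentile of 87.0 in L1-FGGY DMSO, 87.2 in L1-FGGY ML355, 80.6 in the libraries labelled NVR and 78.0 in CTRL DMSO. The median level of the 34 was 68.1 TPM (transcript counts corrected for exonic length and depth) in L1-FGGY DMSO, 79.5 TPM in L1-FGGY ML355, 32.9 TPM in the libraries labelled NVR and 35.6 TPM in CTRL DMSO. In L1-FGGY ML355 the highest levels were those of FDFT1 (squalene synthase) at 1272 TPM, SCD (stearoyl-CoA desaturase) at 1115 TPM and MSMO1 at 983 TPM, whereas ACLY (ATP citrate lyase) led CTRL DMSO at 433 TPM and the libraries labelled NVR at 206 TPM. The lowest was ABCA1, an exporter of cholesterol, in 3 of the groups, at 0.717 TPM in L1-FGGY DMSO, 1.13 TPM in L1-FGGY ML355 and 0.333 TPM in the libraries labelled NVR; in CTRL DMSO it was CYP51A1, a sterol demethylase, at 1.49 TPM. Exons of 17 members overlap those of another annotated gene, and since the strand setting of the counting is not given, reads of the partners cannot be told apart. This bears most on CYP51A1, which overlaps AKAP9 and 2 genes on its own strand, on TM7SF2, which overlaps VPS51 on the same strand, on EBP, and on FADS1 and FADS2, which overlap each other. FADS2 also overlaps FEN1 on the same strand.

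**Figure D1:**
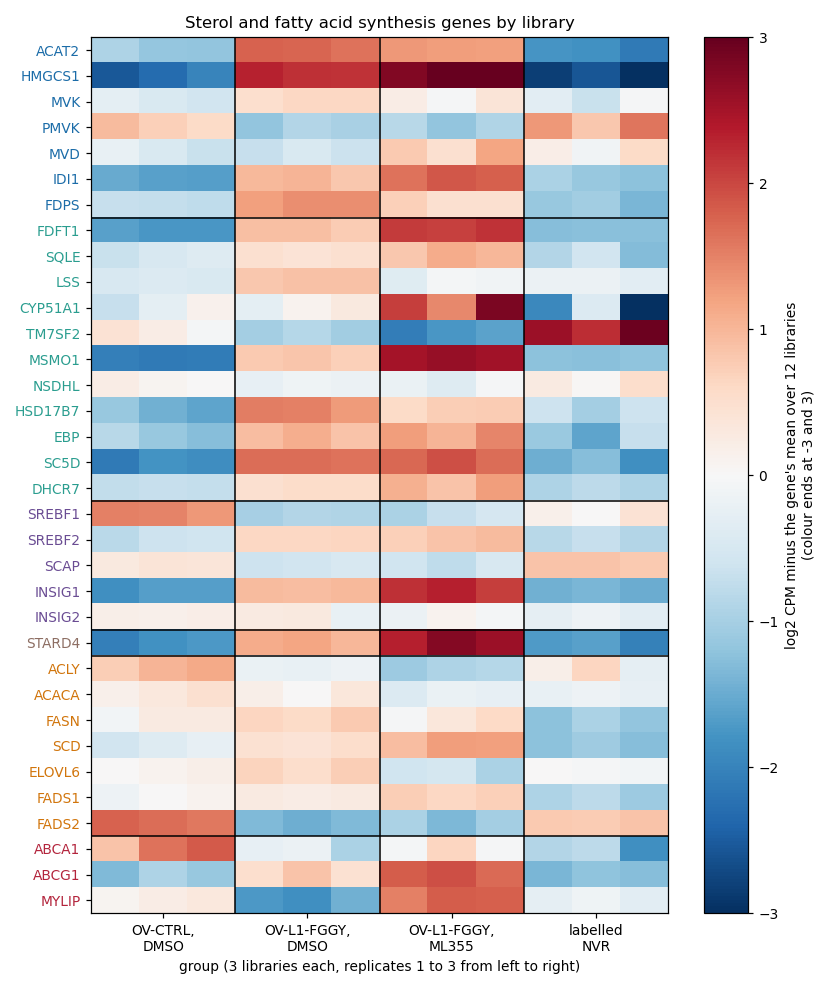
Heat map of the 34 genes (rows, grouped by role, label colours mark the role) in the 12 libraries (columns, 3 per group). Colour gives log2 CPM minus the gene's mean over the 12 libraries, from -3 to 3; most rows are red in the 6 libraries with high FGGY and blue in the other 6, while PMVK, TM7SF2, SREBF1, SCAP, ACLY and FADS2 are among those that do not follow this pattern.

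The first comparison asked how ML355 changed these genes in cells with L1-FGGY. From squalene to cholesterol, FDFT1, SQLE, CYP51A1, MSMO1 and DHCR7 rose under ML355 while LSS, TM7SF2 and HSD17B7 fell. The SREBP feedback gene INSIG1, STARD4 and the LXR targets MYLIP and ABCG1 rose as well, and of the fatty acid enzymes ACLY, ACACA and ELOVL6 fell while SCD and FADS1 rose. Of the 34 genes, 14 were higher (41.2%, against 21.3% of all tested genes) and 8 were lower (23.5%, the same share as the 23.5% of all tested genes), at an edgeR adjusted p under 0.01. The median log2 fold change was 0.25, where that of all tested genes was 0. Without the 3 LXR targets, 12 of 31 genes were higher (38.7%) and 8 lower (25.8%). The 17 members with overlapped exons had 6 higher and 6 lower (35.3% each). The 17 without had 8 higher (47.1%) and 2 lower (11.8%). The share of reads from mitochondrially encoded genes moved with this comparison too, from 5.79 to 6.52% in L1-FGGY DMSO to 1.46 to 1.64% in L1-FGGY ML355. With those genes left out of the library sizes and the scaling, again 14 were higher and 8 lower. The fall of the fibroblast markers given above also runs with ML355, as does that of 3 endothelial markers, whose summed CPM went from 8.89 to 9.41 in L1-FGGY DMSO to 0.258 to 0.690 in L1-FGGY ML355, where VWF was at 0. The part of these markers in the results was not tested. Gene length moved slightly with this comparison. The median log2 fold change was -0.11 over the longest tertile of genes by exonic length (6300 bases or more) and 0.11 over the shortest (3121 bases or less). Of the members in the longest tertile, LSS, ACACA and ELOVL6 fell and HMGCS1, DHCR7 and FADS1 rose. The part of length was not tested.

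Within the mevalonate segment, which builds isoprenoid units from acetyl-CoA, 3 of 7 genes rose (42.9%) and 2 fell (28.6%). Of all tested genes 21.3% were higher and 23.5% lower with ML355. MVD, the mevalonate diphosphate decarboxylase, had 68.8, 81.9 and 71.8 CPM in L1-FGGY DMSO, 193, 155 and 252 in L1-FGGY ML355, 129, 103 and 167 in the libraries labelled NVR, and 96.2, 81.6 and 70.4 in CTRL DMSO. The ML355 libraries were all above the DMSO libraries of the same line, by 2.70-fold (log2 1.43, 95% interval 1.03 to 1.83, adjusted p = 8.81e-06). The libraries labelled NVR overlapped the lowest ML355 library and lay above both DMSO groups. IDI1, the isomerase that makes dimethylallyl diphosphate, had 214, 221 and 193 CPM in L1-FGGY DMSO, 341, 401 and 377 in L1-FGGY ML355, 56.7, 50.023 and 46.6 in the libraries labelled NVR, and 38.5, 35.3 and 34.9 in CTRL DMSO. It rose 1.78-fold under ML355 (log2 0.83, SE 0.11, adjusted p = 8.08e-06), without overlap of the libraries. HMGCS1, the HMG-CoA synthase at the entry to the pathway, rose by 0.77 on the log2 scale (SE 0.18), from 571 ± 26.3 CPM (SD, n = 3) to 973 ± 137 CPM (SD, n = 3), and lost its call when libraries were scaled by library size alone (log2 0.65).

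ACAT2, the cytosolic thiolase that joins acetyl-CoA units, fell. It had 146, 143 and 132 CPM in L1-FGGY DMSO, 105, 102 and 98.7 in L1-FGGY ML355, 12.4, 12.1 and 9.82 in the libraries labelled NVR, and 22.2, 19.004 and 18.7 in CTRL DMSO. Each ML355 library was below each L1-FGGY DMSO library (log2 -0.46, SE 0.11, adjusted p = 0.00189), and both of those groups were far above the other 6 libraries. FDPS, the farnesyl diphosphate synthase, fell by 0.78 on the log2 scale (SE 0.11), from 143 ± 8.87 CPM (SD, n = 3) to 83.5 ± 7.61 CPM (SD, n = 3). The 2 kinases between them passed no test: mevalonate kinase MVK had a log2 fold change of -0.38 (adjusted p = 0.0371) and phosphomevalonate kinase PMVK one of 0.03 (adjusted p = 0.905).

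From squalene to cholesterol, 5 of 11 genes rose (45.5%, against 21.3% of all tested genes) and 3 fell (27.3%, against 23.5%). MSMO1 (chr4:165327667-165343164 in hg38, GENCODE 44), whose promoter is printed above, had 225, 230.3 and 212 CPM in L1-FGGY DMSO, 726, 796 and 738 in L1-FGGY ML355, 55.6, 54.7 and 55.9 in the libraries labelled NVR, and 31.3, 29.953 and 30.1 in CTRL DMSO. The 4 groups were fully separate, and ML355 raised it 3.39-fold (log2 1.76, 95% interval 1.56 to 1.96, adjusted p = 8.05e-10). Its replicates were the closest of all members, with a within-group SD of 0.05 on the log2 CPM scale against a median of 0.24 over all tested genes. CYP51A1 had 1.72, 2.26 and 2.57 CPM in L1-FGGY DMSO, 8.87, 5.72 and 14.976 in L1-FGGY ML355, 0.550, 1.59 and 0.219 in the libraries labelled NVR, and 1.30, 1.72 and 2.30 in CTRL DMSO. These are low counts in a gene with overlapped exons, and the ML355 libraries were all above the rest, though uneven among themselves (log2 2.16, SE 0.42, adjusted p = 0.000397).

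FDFT1, which commits farnesyl units to sterols, rose 2.38-fold under ML355 (log2 1.25, SE 0.10), from 734 ± 39.2 CPM (SD, n = 3) to 1745 ± 67.1 CPM (SD, n = 3). DHCR7, a last-step reductase, rose by 0.54 (SE 0.11) and SQLE, the squalene epoxidase, by 0.51 (SE 0.15) on the log2 scale. SQLE passed only narrowly (adjusted p = 0.00717) and lost its call without any 1 of the L1-FGGY DMSO libraries, without L1-FGGY ML355 replicate 2 or 3, without CTRL DMSO replicate 2 or without replicate 1 of the libraries labelled NVR, where its log2 fold change lay between 0.44 and 0.52, and with scaling by library size alone (0.39). LSS, the cyclase that forms lanosterol from the product of SQLE, went the other way, by -1.03 on the log2 scale (SE 0.10), from 167 ± 4.06 CPM (SD, n = 3) to 82.1 ± 8.95 CPM (SD, n = 3).

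TM7SF2, a sterol C14-reductase, had 12.8, 14.4 and 12.7 CPM in L1-FGGY DMSO, 6.16, 7.78 and 8.62 in L1-FGGY ML355, 156, 121 and 201 in the libraries labelled NVR, and 35.2, 30.6 and 24.973 in CTRL DMSO. Under ML355 it fell by 0.82 on the log2 scale (SE 0.19, adjusted p = 0.00166), a call lost without L1-FGGY ML355 replicate 1 (log2 -0.70). HSD17B7, a sterol ketoreductase, fell by 0.75 (SE 0.14). No test was passed by NSDHL (log2 -0.02), EBP (log2 0.31) or SC5D (log2 0.11), which encode a sterol dehydrogenase, an isomerase and a desaturase.

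Among the SREBP factors and their controllers INSIG1 alone passed the test with ML355. INSIG1 (chr7:155297776-155310235) had 375, 367 and 380.3 CPM in L1-FGGY DMSO, 883, 967 and 819 in L1-FGGY ML355, 70.7, 74.3 and 68.3 in the libraries labelled NVR, and 53.6, 61.9 and 61.5 in CTRL DMSO. The ML355 libraries were above all others, 2.38-fold over L1-FGGY DMSO (log2 1.25, 95% interval 1.02 to 1.48, adjusted p = 8.47e-08). The other members of the group had log2 fold changes of 0.22 for SREBF1 (95% interval -0.06 to 0.51), 0.21 for SREBF2 (-0.01 to 0.43), -0.05 for SCAP (-0.26 to 0.16) and -0.17 for INSIG2, the second retention protein (-0.46 to 0.12). STARD4 had 99.3, 105 and 91.4 CPM in L1-FGGY DMSO, 233, 311 and 273 in L1-FGGY ML355, 14.3, 14.8 and 11.3 in the libraries labelled NVR, and 11.1, 13.1 and 14.002 in CTRL DMSO. Its ML355 libraries stood apart from the rest, 2.76-fold above L1-FGGY DMSO (log2 1.47, SE 0.13, adjusted p = 1.79e-07).

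Of the 7 fatty acid synthesis genes, 2 rose (28.6%, against 21.3% of all tested genes) and 3 fell (42.9%, against 23.5%) with ML355. ELOVL6, which extends palmitate to stearate, had 43.4, 39.5 and 45.5 CPM in L1-FGGY DMSO, 18.1, 19.1 and 14.1 in L1-FGGY ML355, 27.6, 26.7 and 26.2 in the libraries labelled NVR, and 27.8, 29.6 and 30.8 in CTRL DMSO. It was lower in every ML355 library than in any other library and fell 2.501-fold against L1-FGGY DMSO (log2 -1.32, 95% interval -1.58 to -1.06, adjusted p = 2.3e-07). ACLY, which supplies cytosolic acetyl-CoA, had 292, 285 and 301 CPM in L1-FGGY DMSO, 157, 174 and 183 in L1-FGGY ML355, 373, 519 and 278 in the libraries labelled NVR, and 553, 672 and 726 in CTRL DMSO. The ML355 libraries were the lowest of the 12 (log2 -0.77, SE 0.18, adjusted p = 0.0014), although without L1-FGGY ML355 replicate 1 the adjusted p was 0.0102. ACACA, the acetyl-CoA carboxylase of the committed step, fell by 0.47 (SE 0.12) and lost its call without that library (log2 -0.40) or without L1-FGGY DMSO replicate 3 (log2 -0.39).

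SCD (chr10:100347233-100364826), which makes oleate from stearate, had 980.1, 942 and 1026 CPM in L1-FGGY DMSO, 1355, 1695 and 1663 in L1-FGGY ML355, 305, 341 and 297 in the libraries labelled NVR, and 478, 548 and 599.9 in CTRL DMSO. All groups were separate, with ML355 highest and 1.60-fold above L1-FGGY DMSO (log2 0.68, SE 0.13, adjusted p = 0.000271). FADS1, the Δ5 desaturase of polyunsaturated fatty acids, had 334, 321 and 333 CPM in L1-FGGY DMSO, 458, 423 and 447 in L1-FGGY ML355, 145, 159 and 128 in the libraries labelled NVR, and 249, 277 and 295 in CTRL DMSO. It rose by 0.43 on the log2 scale (SE 0.11, adjusted p = 0.00311), and the call was lost without any 1 of the L1-FGGY DMSO libraries or without L1-FGGY ML355 replicate 1, at 0.40 to 0.43, and at 0.30 with scaling by library size alone. FASN, the fatty acid synthase, had 654, 624 and 719.9 CPM in L1-FGGY DMSO, 407, 527 and 627 in L1-FGGY ML355, 177, 217 and 182 in the libraries labelled NVR, and 396, 502 and 501 in CTRL DMSO. Its ML355 libraries overlapped the L1-FGGY DMSO libraries (log2 -0.36, adjusted p = 0.0576), as did those of FADS2, the Δ6 desaturase (log2 0.28, adjusted p = 0.0447).

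The LXR targets held the largest change of the list. MYLIP (chr6:16129086-16148248), a ubiquitin ligase that removes lipoprotein receptors, had 2.18, 1.9984 and 2.62 CPM in L1-FGGY DMSO, 20.4, 25.1 and 24.7 in L1-FGGY ML355, 5.90, 6.52 and 5.71 in the libraries labelled NVR, and 7.61, 8.41 and 8.98 in CTRL DMSO. ML355 put it above all other libraries, 10.3-fold over L1-FGGY DMSO (log2 3.36, 95% interval 3.002 to 3.72, adjusted p = 3.77e-10), and the L1-FGGY DMSO libraries were the lowest. ABCG1, a sterol exporter, had 20.6, 26.6 and 20.005 CPM in L1-FGGY DMSO, 51.6, 55.6 and 47.3 in L1-FGGY ML355, 5.70, 6.29 and 6.09 in the libraries labelled NVR, and 5.81, 7.66 and 6.71 in CTRL DMSO. It rose 2.30-fold (log2 1.20, SE 0.14, adjusted p = 1.98e-06), with the ML355 libraries again above all others. ABCA1 (chr9:104781006-104928155) had 2.47, 2.58 and 1.51 CPM in L1-FGGY DMSO, 2.81, 4.58 and 2.84 in L1-FGGY ML355, 1.60, 1.70 and 0.823 in the libraries labelled NVR, and 5.26, 9.03 and 10.4 in CTRL DMSO. Its ML355 and L1-FGGY DMSO libraries did not overlap, but at these low counts the difference passed no test (log2 0.64, 95% interval -0.06 to 1.35, adjusted p = 0.109).

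**Figure D2:**
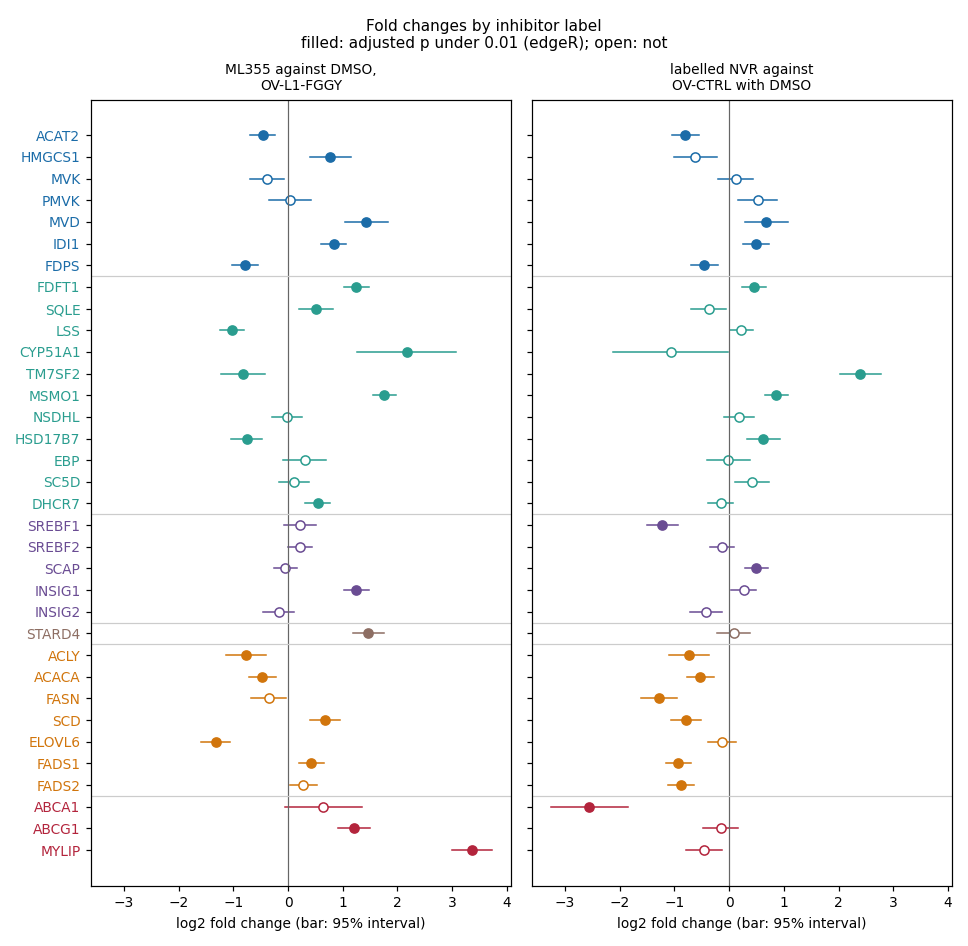
Log2 fold change (x axis) of each of the 34 genes (y axis, colours mark roles) for L1-FGGY ML355 against L1-FGGY DMSO (left) and the libraries labelled NVR against CTRL DMSO (right), with 95% intervals; filled points passed an adjusted p under 0.01. On the left MYLIP reaches 3.36 and MSMO1 1.76, and on the right 6 of 7 fatty acid synthesis genes lie below 0 with filled points while TM7SF2 reaches 2.39.

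The second comparison set the libraries labelled NVR against CTRL DMSO, the group they resembled in FGGY. Here 6 of 7 fatty acid synthesis genes fell (85.7%, against 15.3% of all tested genes) and none rose (against 14.5%). SREBF1 and ABCA1 fell. From squalene to cholesterol 4 of 11 genes rose (36.4%, against 14.5%) and none fell (against 15.3%). Among 7 or 11 genes, counts of 0 are near these shares of all tested genes. At an unadjusted edgeR p under 0.05 the fatty acid genes had 0 higher and the 11 had 2 lower (SQLE and CYP51A1). The share of all tested genes at that p was not counted. At the adjusted threshold limma voom and DESeq2 each gave 0 and 0. Over the 34 genes, 7 were higher (20.6%, against 14.5% of all tested genes) and 10 lower (29.4%, against 15.3%), with a median log2 fold change of -0.15. When libraries were scaled by library size alone, which moved the median of all tested genes by -0.15, 2 were higher (TM7SF2 and MSMO1) and 10 lower. The share of mitochondrially encoded reads was 6.19 to 6.74% in the libraries labelled NVR and 4.21 to 4.51% in CTRL DMSO, and with those genes left out again 7 were higher and 10 lower. Summed CPM of 4 neuroendocrine markers were 16.4 to 23.7 against 5.20 to 7.57, with 2 of the 4 at no more than 3 counts in every library of either group. Those of 4 adenocarcinoma markers were 7.59 to 10.6 against 4.58 to 5.43, with 1 and 2 of the 4 at no more than 3 counts. None of the 8 was at 0 throughout a group, and the part of these markers in the results was not tested. The number higher was 3 without CTRL DMSO replicate 2, without CTRL DMSO replicate 3 or without replicate 1 of the libraries labelled NVR.

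SREBF1 (chr17:17810399-17837002), the gene of SREBP1, had 137, 149.6 and 147 CPM in L1-FGGY DMSO, 141, 170.1 and 194 in L1-FGGY ML355, 307, 276 and 369.7 in the libraries labelled NVR, and 779, 761 and 678 in CTRL DMSO. CTRL DMSO was far above the other groups, and the libraries labelled NVR were 2.33-fold below it (log2 -1.22, 95% interval -1.51 to -0.93, adjusted p = 4.35e-06). SREBF2 (chr22:41833105-41907306) had 265, 266 and 268 CPM in L1-FGGY DMSO, 281, 313 and 332 in L1-FGGY ML355, 97.3, 106 and 93.4 in the libraries labelled NVR, and 98.6, 112 and 113 in CTRL DMSO. The libraries labelled NVR overlapped CTRL DMSO in SREBF2 (log2 -0.12, 95% interval -0.34 to 0.09). SCAP, the escort of both factors, had 64.8, 66.8 and 70.6 CPM in L1-FGGY DMSO, 65.7, 58.9 and 71.043 in L1-FGGY ML355, 178, 181 and 172 in the libraries labelled NVR, and 121, 129 and 127 in CTRL DMSO, and rose by 0.49 (SE 0.10, adjusted p = 0.000813), or by 0.34 with no call under scaling by library size alone.

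The fatty acid enzymes fell together. FASN was 2.43-fold below CTRL DMSO in the libraries labelled NVR (log2 -1.28, 95% interval -1.61 to -0.95, adjusted p = 1.02e-05). FADS1 was lower by 0.93 (SE 0.11), FADS2 by 0.87 (SE 0.11), SCD by 0.79 (SE 0.13), ACLY by 0.74 (SE 0.17) and ACACA by 0.53 (SE 0.12) on the log2 scale, each without overlap of the libraries. ELOVL6 passed no test (log2 -0.13, adjusted p = 0.388). ACLY and ACACA each lost their call without CTRL DMSO replicate 3 or replicate 1 of the libraries labelled NVR (ACLY -0.65 and -0.70, ACACA -0.46 and -0.52), and ACLY also without CTRL DMSO replicate 2 (-0.71). Long genes as a whole moved the same way in this comparison, with a median log2 fold change of -0.15 over the longest tertile of genes by exonic length (6300 bases or more) and 0.23 over the shortest (3121 bases or less). FASN, ACACA, FADS1 and FADS2 are in the longest tertile, and the part of gene length in their fall was not tested.

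In the sterol arm TM7SF2 rose 5.26-fold (log2 2.39, 95% interval 2.02 to 2.77, adjusted p = 6.83e-08), with all 3 libraries labelled NVR above all others. MSMO1 rose 1.82-fold (log2 0.86, SE 0.10, adjusted p = 4.54e-06), and smaller rises were found for MVD (log2 0.68), HSD17B7 (0.63), IDI1 (0.50) and FDFT1 (0.45). The last 4 lost their calls with scaling by library size alone and without CTRL DMSO replicate 2, CTRL DMSO replicate 3 or replicate 1 of the libraries labelled NVR. MVD also lost its call without L1-FGGY DMSO replicate 1 or 3, L1-FGGY ML355 replicate 1 or replicate 3 of the libraries labelled NVR, and, with a replicate block, its adjusted p was 0.0121. A fit of only those 2 groups lost the calls of MVD, HSD17B7, FDPS and ACLY, at unchanged size. ACAT2 fell by 0.80 (SE 0.12, adjusted p = 6.41e-05) and FDPS by 0.45 (SE 0.11), the call of the latter being lost without any 1 of the CTRL DMSO libraries or without replicate 1 or 3 of the libraries labelled NVR (-0.35 to -0.47). HMGCS1 (log2 -0.62), MVK (0.12), PMVK (0.52), SQLE (-0.38), LSS (0.22), CYP51A1 (-1.07), NSDHL (0.18), EBP (-0.02), SC5D (0.42) and DHCR7 (-0.16) passed no test, nor did INSIG1 (0.27), INSIG2 (-0.42) and STARD4 (0.09).

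ABCA1 fell by 2.55 on the log2 scale (95% interval -3.25 to -1.85, adjusted p = 1.85e-05), with CTRL DMSO above all other libraries. The other LXR targets passed no test, at log2 -0.46 for MYLIP (95% interval -0.78 to -0.14, adjusted p = 0.0221) and -0.16 for ABCG1 (-0.48 to 0.17).

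**Figure D3:**
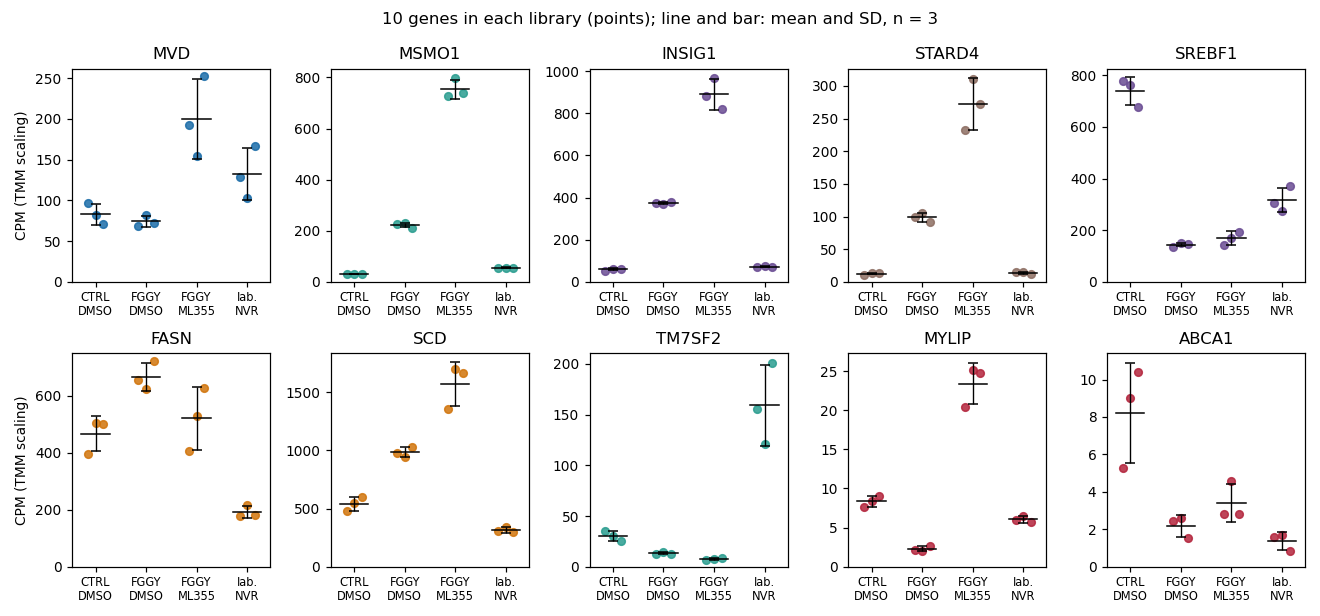
CPM (y axis, linear from 0) of 10 of the genes in every library (points) by group (x axis), with the mean and SD of 3 libraries. MSMO1, INSIG1, STARD4, SCD and MYLIP are highest in the L1-FGGY ML355 libraries, SREBF1 and ABCA1 in CTRL DMSO, and TM7SF2 in the libraries labelled NVR.

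The effects of both inhibitor labels were then compared directly, as the difference between the change labelled NVR (against CTRL DMSO) and the change with ML355 (against L1-FGGY DMSO), which share no library. ML355 was given only in libraries with high FGGY, and the NVR label stands only on libraries with low FGGY. The agent and the set of libraries therefore cannot be told apart in this difference. For 16 of the 34 genes the change labelled NVR was lower (47.1%, against 17.3% of all tested genes) and for 5 it was higher (14.7%, against 16.8%). All 3 LXR targets differed in that direction, by -3.82 for MYLIP (SE 0.23), -3.20 for ABCA1 (SE 0.47) and -1.36 for ABCG1 (SE 0.20) on the log2 scale. SCD (-1.46), SREBF1 (-1.44), HMGCS1 (-1.39), STARD4 (-1.38), FADS1 (-1.35), FADS2 (-1.15), INSIG1 (-0.98), FASN (-0.93), MSMO1 (-0.90), SQLE (-0.89), FDFT1 (-0.80) and DHCR7 (-0.70) differed in that direction as well. CYP51A1 did too, at -3.23, and at -4.32 without replicate 2 of the libraries labelled NVR.

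The reverse difference was found for TM7SF2 (3.22, SE 0.26), HSD17B7 (1.38), LSS (1.25), ELOVL6 (1.19) and SCAP (0.54). That of SCAP was narrow (adjusted p = 0.00453) and was lost without L1-FGGY DMSO replicate 2 or 3, L1-FGGY ML355 replicate 2, CTRL DMSO replicate 2 or 3 or replicate 1 of the libraries labelled NVR, at 0.47 to 0.57, with no filter on low counts (0.54), and with scaling by library size alone (0.52), which also ended the call of SQLE (-0.91). Of the 12 genes called in both changes, 8 went the same way (ACACA, ACAT2, ACLY, FDFT1, FDPS, IDI1, MSMO1 and MVD) and 4 opposite ways (FADS1, HSD17B7, SCD and TM7SF2), which is 66.7% in the same direction where the share over all 2672 genes called in both was 64.6%. No difference passed the test for ACAT2, MVK, PMVK, MVD, IDI1, FDPS, NSDHL, EBP, SC5D, SREBF2, INSIG2, ACLY and ACACA, whose differences lay between -0.75 for MVD (95% interval -1.30 to -0.20) and 0.51 for MVK (0.06 to 0.96).

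The third comparison set L1-FGGY DMSO against CTRL DMSO. L1-FGGY and any other difference between these lines cannot be told apart in it. Of the 18 sterol synthesis genes 13 were higher in L1-FGGY DMSO, 2 were lower (PMVK and TM7SF2) and 3 passed no test (MVD, CYP51A1 and NSDHL), while SREBF1 and FADS2 were lower. Of the 34 genes, 20 were higher (58.8%, against 32.5% of all tested genes) and 8 lower (23.5%, against 36.2%), and the median log2 fold change was 0.91 where that of all tested genes was -0.11. The markers given above separate the same libraries, fibroblast markers being higher and SOX2 being at 0 with L1-FGGY. KRT14, another squamous marker, went against SOX2, at 4 to 10 counts in L1-FGGY DMSO and 0 in CTRL DMSO. Endothelial markers (3 genes) had a summed CPM of 8.89 to 9.41 in L1-FGGY DMSO and at most 0.69 in the other groups. The 4 neuroendocrine markers summed to 0.454 to 0.841 CPM with L1-FGGY and the 4 adenocarcinoma markers to 0.454 to 0.789 CPM, both below CTRL DMSO, and the mitochondrially encoded share, given above, was higher. With those mitochondrial genes left out, again 20 members were higher and 8 lower; the markers' part in these differences was not tested. Gene length moved with this comparison too, at a median log2 fold change of 0.18 over the longest tertile and -0.45 over the shortest, and its part was not tested either.

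HMGCS1, named here for its size after its values were seen, had 601, 559 and 552 CPM in L1-FGGY DMSO, 831, 1103 and 984 in L1-FGGY ML355, 17.2, 20.7 and 11.6 in the libraries labelled NVR, and 20.9, 24.8 and 30.8 in CTRL DMSO. The 6 libraries with high FGGY were all above the other 6, and L1-FGGY DMSO was 22.4-fold above CTRL DMSO (log2 4.49, 95% interval 4.05 to 4.92, adjusted p = 1.05e-11). Other mevalonate genes that were higher were ACAT2 (log2 2.81), IDI1 (2.53), FDPS (2.06) and MVK (1.02). PMVK was lower (log2 -1.76, SE 0.18) and MVD passed no test (-0.16).

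Past squalene, SC5D was 12.0-fold higher (log2 3.58, SE 0.15), and MSMO1 (2.87), HSD17B7 (2.82), FDFT1 (2.57), EBP (2.02), LSS (1.30), DHCR7 (1.25) and SQLE (0.97) were higher too. TM7SF2 was lower (log2 -1.18, SE 0.18), and CYP51A1 (0.30) and NSDHL (-0.28) passed no test. STARD4 (log2 2.95, SE 0.14), INSIG1 (2.66, SE 0.11) and SREBF2 (1.30, SE 0.10) were higher, and INSIG2 passed no test (-0.04).

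SREBF1 was 5.12-fold lower in L1-FGGY DMSO than in CTRL DMSO (log2 -2.36, 95% interval -2.66 to -2.06, adjusted p = 2.76e-10), and SCAP was lower by 0.90 (SE 0.10). Among the fatty acid genes FADS2 was 8.31-fold lower (log2 -3.05, SE 0.12) and ACLY 2.22-fold lower (-1.15, SE 0.18), whereas SCD (0.86), ELOVL6 (0.54) and FASN (0.51) were higher, and FADS1 (0.27) and ACACA (-0.14) passed no test. The call of FASN was lost without L1-FGGY DMSO replicate 1 (0.53) or 3 (0.46) or CTRL DMSO replicate 1 (0.42). The LXR targets were split, with ABCG1 higher (log2 1.73, SE 0.15) and ABCA1 (-1.92, SE 0.32) and MYLIP (-1.87, SE 0.17) lower.

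**Figure D4:**
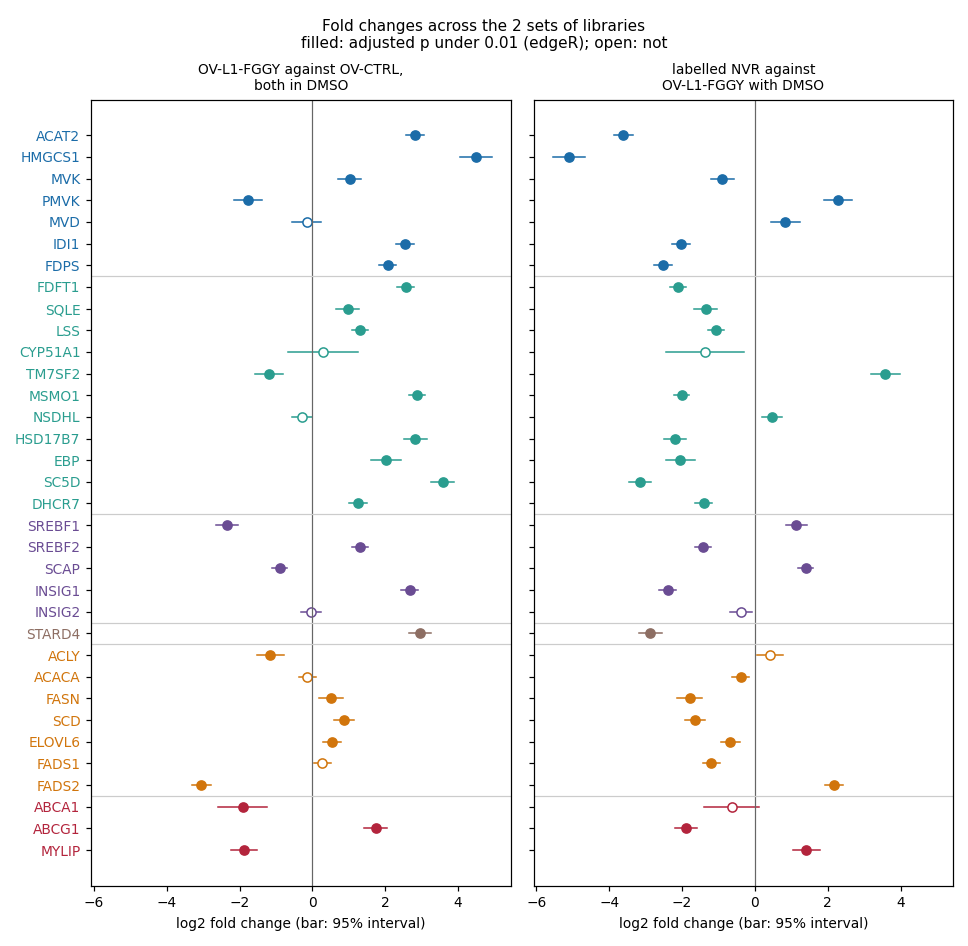
Log2 fold change (x axis, 95% intervals) of the 34 genes (y axis) for L1-FGGY DMSO against CTRL DMSO (left) and for the libraries labelled NVR against L1-FGGY DMSO (right); filled points passed an adjusted p under 0.01. HMGCS1 reaches 4.49 on the left and -5.10 on the right; L1-FGGY DMSO enters both panels, so that they are not independent.

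The fourth comparison is the one that the label of the NVR group implies, against L1-FGGY DMSO. Because FGGY was near the control level in the libraries labelled NVR, the agent and the difference between the lines cannot be told apart here, and the comparison shares the L1-FGGY DMSO libraries with the previous one. Of the 34 genes, 8 were higher (23.5%, against 38.2% of all tested genes) and 22 lower (64.7%, against 35.4%), with a median log2 fold change of -1.36 where that of all tested genes was 0.08. Long genes as a whole were lower in this comparison too, with a median of -0.38 over the longest tertile and 0.67 over the shortest, and the part of length was not tested.

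HMGCS1 fell by 5.10 on the log2 scale (95% interval -5.55 to -4.65, adjusted p = 3.04e-12). Falls were found as well for ACAT2 (log2 -3.61), FDPS (-2.52), IDI1 (-2.03) and MVK (-0.89), while PMVK (2.28) and MVD (0.84) rose. Past squalene, log2 fold changes of the genes that fell ran from -1.07 for LSS to -3.16 for SC5D, with EBP (-2.04), FDFT1 (-2.11), HSD17B7 (-2.20), MSMO1 (-2.01), DHCR7 (-1.41) and SQLE (-1.35) between them; TM7SF2 rose 12.0-fold (log2 3.58, SE 0.19) and NSDHL by 0.47, the latter without a call when libraries were scaled by library size alone (0.21) or when L1-FGGY DMSO replicate 1 or 3 or replicate 1 or 3 of the libraries labelled NVR was left out (0.34 to 0.47). CYP51A1 passed no test (-1.37, adjusted p = 0.0196).

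STARD4 (-2.87), INSIG1 (-2.40) and SREBF2 (-1.43) fell, and SREBF1 (1.14, SE 0.14) and SCAP (1.39, SE 0.10) rose. INSIG2 passed no test (-0.38). FASN (-1.79), SCD (-1.64), FADS1 (-1.19), ELOVL6 (-0.67) and ACACA (-0.39) fell, FADS2 rose by 2.18 (SE 0.12) and ACLY passed no test (0.42, adjusted p = 0.0371). The call of ACACA was lost without L1-FGGY DMSO replicate 1 or 3 or without replicate 1 or 3 of the libraries labelled NVR (-0.31 to -0.40), with DESeq2 or its size factors (-0.31), and at -0.35 with no filter on low counts or with only those 2 groups in the fit. ABCG1 fell by 1.89 (SE 0.15), MYLIP rose by 1.41 (SE 0.17), and ABCA1 passed no test (-0.64, adjusted p = 0.112).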

How the data were processed

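RNA-seq libraries of 12 H520 cultures were analysed, in 4 groups of 3 taken from the sample titles. Count columns that name only NVR or only DMSO were joined to these titles by inference, as described above. The processing notes of the submitters name STAR 2.5.3a, HTSeq 0.11.2 and hg38 for alignment and counting by the authors, and the deposited values per Ensembl gene are whole-number raw counts without normalization. The annotation release, the strand setting and the handling of reads with several positions are not given in the sources used here. The labels name a TruSeq kit where the methods name NEB.

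Of 58302 identifiers, 57532 were matched to GENCODE 44 for symbols and positions on the same build, and 36072 had a count in any library. Counts were filtered with filterByExpr (17849 genes kept), scaled by TMM and tested in R 4.3.3 with edgeR 4.0.16, with quasi-likelihood dispersions (robust) for the 4 groups and Benjamini-Hochberg adjusted p under 0.01 over all 17849 genes. CPM are TMM-scaled, and TPM divide counts by exonic length. The common biological coefficient of variation was 0.143. On simulated counts of 17849 genes with 200 changed by a log2 fold change of 1, set up as for ML355 against L1-FGGY DMSO, edgeR recovered 171 with 1 false call. The simulation gave every gene the common dispersion, changed only genes above a minimum mean count and left all others equal between groups. Its figures therefore do not carry over to genes of wider spread or lower counts, or to data in which many genes differ. At 16242082 counts or more per library, counting error matters mainly for ABCA1, CYP51A1 and MYLIP.

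The members, the other gene lists and the tests were chosen with earlier results of these data known, so that no count is independent support of a pattern seen before. All 34 members are named. Values in every library are given for the regulators SREBF1, SREBF2 and INSIG1, the desaturase SCD and the LXR targets. They are also given, per role, for the 2 members with the largest change among those past the threshold under ML355 and the 2 in the libraries labelled NVR against CTRL. HMGCS1 was added after its values were seen. Alternatives were limma voom 3.58.1 (the test of the study), DESeq2 1.42.0, other scalings, filters and thresholds, a replicate block, fits of only 2 groups, and leaving out each of 12 libraries. Promoter sequences are those of RefSeq (GRCh38.p14), and motifs were searched on both strands.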

Additional observations from a re-analysis of the deposited data

How the results depend on the processing

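Every call kept its direction under every alternative. At the main threshold, calls held in all the other alternatives for 16 of 22 members with ML355 and 27 of 28 for L1-FGGY DMSO against CTRL DMSO. They held for 28 of 30 for the libraries labelled NVR against L1-FGGY DMSO, 9 of 17 against CTRL DMSO, and 19 of 21 for the difference between the changes. The changed thresholds are not part of these counts. A minimum size of 1 on the log2 scale left 8 higher (14 without it) and 2 lower (8) with ML355, 1 higher (7) and 3 lower (10) for the NVR label against CTRL DMSO, and 10 lower (16) for the difference. Over all tested genes it left 1943 higher (3810) and 2647 lower (4194) with ML355, 1257 higher (2593) and 1087 lower (2723) for the NVR label against CTRL DMSO, and 2018 lower (3092) for the difference. With an adjusted p under 0.05, 3918 were higher in the libraries labelled NVR against CTRL DMSO. Scaling by library size alone gave 2 members higher (7) there, with 1825 of all tested genes higher and 3208 lower, and shifted the median of all tested genes by -0.13 with ML355 and to -0.16 for the libraries labelled NVR against L1-FGGY DMSO. Leaving out 1 library gave 12 to 14 members higher and 5 to 9 lower with ML355 (5 without L1-FGGY ML355 replicate 1), 19 to 20 higher and 8 lower for L1-FGGY DMSO against CTRL DMSO, 7 to 8 higher and 21 to 23 lower for the libraries labelled NVR against L1-FGGY DMSO, 3 to 8 higher and 7 to 13 lower against CTRL DMSO, and 4 to 7 higher and 16 to 17 lower for the difference. All tested genes higher in the libraries labelled NVR against CTRL DMSO fell to 1602 without CTRL DMSO replicate 2 and 1622 without replicate 3. Where a call was lost the cause was not tested.

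Values that changed sign were near 0 and had no call. With scaling by library size alone these were PMVK (-0.10) and SC5D (-0.017) with ML355, INSIG2 (0.043) for L1-FGGY DMSO against CTRL DMSO, and MVK (-0.049) and STARD4 (-0.065) for the libraries labelled NVR against CTRL DMSO, where EBP was 0.023 with DESeq2 and 0.022 with its size factors in edgeR. ACLY was -0.0071 for the difference with limma voom. Without 1 library, PMVK ranged from -0.055 to 0.13, NSDHL from -0.11 to 0.064 and SCAP from -0.11 to 0.021 with ML355, INSIG2 from -0.13 to 0.12 for L1-FGGY DMSO against CTRL DMSO, MVK from -0.028 to 0.27, EBP from -0.25 to 0.18 and STARD4 from -0.0017 to 0.21 for the libraries labelled NVR against CTRL DMSO, and for the difference ACLY from -0.21 to 0.25 and ACACA from -0.15 to 0.026.

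Equal replicate numbers are shared by the 4 groups, but no source says that they mark a shared day or passage. Deviations from the group means correlated between same-numbered libraries at -0.03, -0.03 and -0.05 for L1-FGGY ML355 and L1-FGGY DMSO, and at 0.05, 0.17 and -0.35 for the libraries labelled NVR and CTRL DMSO. For L1-FGGY DMSO and CTRL DMSO they correlated at -0.04, -0.04 and 0.05, and for the libraries labelled NVR and L1-FGGY DMSO at 0.01, -0.12 and -0.03. From 3 libraries per group, these values cannot tell whether the numbers pair the libraries. With a replicate block the members higher and lower were 14 and 8 with ML355, 20 and 8 for L1-FGGY DMSO against CTRL DMSO, 8 and 22 for the libraries labelled NVR against L1-FGGY DMSO, 6 and 10 for them against CTRL DMSO, and 5 and 16 for the difference. A fit of only the groups compared could not be made for the difference.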

Other observations

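Genes next to these pathways were taken from 6 further lists, whose counts stand against 21.3% of all tested genes higher and 23.5% lower with ML355, and 14.5% higher and 15.3% lower with the NVR label against CTRL DMSO. Fatty acid oxidation, which burns what synthesis makes, had 2 of 18 genes higher and 6 lower with ML355 (median log2 fold change -0.23), and 8 higher and 1 lower with the NVR label against CTRL DMSO (median 0.36). The difference between the changes was higher for 8 of 18 at an edgeR adjusted p under 0.01 (16.8% of all tested genes). CPT2, the inner carnitine palmitoyltransferase of mitochondria, fell with ML355 by 2.14 on the log2 scale (SE 0.17), and SLC25A20, the carnitine carrier, by 1.31 (SE 0.17). ETFDH, which passes electrons from acyl-CoA oxidation to ubiquinone, was higher in the libraries labelled NVR (0.76, SE 0.12), and so was ACADVL, the dehydrogenase of very long acyl chains (0.71, SE 0.15). CPT1A, the gate of the pathway, was higher in L1-FGGY DMSO than in CTRL DMSO (2.05, SE 0.11), as was PPARA (2.95, SE 0.16), a nuclear receptor that drives oxidation genes.

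Sterol handling genes (10) had 3 higher and 3 lower with ML355 (21.3% and 23.5% of all tested genes), and 4 higher and 1 lower with the NVR label against CTRL DMSO (14.5% and 15.3%). SOAT1, which esterifies cholesterol for storage, fell with ML355 by 1.45 on the log2 scale (SE 0.13), and GRAMD1B, which moves cholesterol from the plasma membrane to the endoplasmic reticulum, fell by 1.71 (SE 0.11). TMEM97 was lower with the NVR label (-1.03, SE 0.10). The isoprenoid branch (10) had 1 higher and 4 lower with ML355, and 2 lower with the NVR label, against the same shares of all tested genes. ICMT, which methylates prenylated proteins, fell with ML355 by 1.02 (SE 0.10), and PDSS1, which builds the ubiquinone side chain, fell by 1.48 (SE 0.16) with ML355 and by 1.79 (SE 0.16) in the libraries labelled NVR.

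Fatty acid supply, elongation and activation (16) had 3 higher and 4 lower with ML355 (21.3% and 23.5% of all tested genes) and 4 higher and 1 lower with the NVR label (14.5% and 15.3%), and the same shares apply to the next lists. ACSS2, which makes acetyl-CoA from acetate, was higher in L1-FGGY DMSO than in CTRL DMSO by 3.14 on the log2 scale (SE 0.11) and in the libraries labelled NVR than in CTRL DMSO by 0.69 (SE 0.10). MID1IP1, an activator of acetyl-CoA carboxylase, rose with ML355 (0.91, SE 0.10). SREBP processing and turnover (9) had 1 higher and 1 lower with ML355, which were ERLIN1 (0.59, SE 0.10) and RNF145 (-1.11, SE 0.12), and 2 higher and 2 lower with the NVR label. The list of LXRs and partners (6) also holds LPCAT3 and SMPDL3A, which are neither LXRs nor their partners. It had 0 genes higher and 1 lower with ML355, NR1H3, which encodes LXRα (-0.79, SE 0.14). With the NVR label it had 1 higher and 1 lower, NR1H2, which encodes LXRβ (0.63, SE 0.15), and LPCAT3 (-1.15, SE 0.28).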
